A study of Homo sapiens with 6 samples.

Results

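N6-methyladenosine (m6A) peaks that lie upstream of an annotated transcript start are described here, in TE-10, an established human line of esophageal squamous carcinoma cells. The members are all regions that the deposited peak list places in the class Upstream, with no further cut on a measured value. The list itself holds peaks called from the immunoprecipitation, and the class was chosen with earlier results of these data known. There are 1249 such regions among 15940 peaks, or 7.84% (95% Wilson interval 7.43 to 8.26%), and they are assigned to 1031 of the 8906 genes with a peak, called host genes below. Methylated RNA was captured with m6A antibodies in 2 immunoprecipitated libraries from cells with normal METTL3, each with a different antibody product, beside 1 input library. They yielded 1 peak list, and whether it pools them is not stated. RNA-seq was made from 2 libraries of TE-10 cells with stable short hairpin knockdown of METTL3 and 1 control library of TE-10 cells with normal METTL3. The titles of the knockdown libraries (sh1 and sh2) name different hairpins, so hairpin and library cannot be told apart. All libraries came from polyadenylated RNA. Nothing in the labels says that libraries came from separate cultures, or whether a hairpin line is 1 clone. The p-values therefore measure only the spread between these libraries, which may be technical or come with the hairpin.

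METTL3 is the catalytic subunit of the nuclear complex that writes m6A on RNA polymerase II transcripts, mostly in a short consensus built around the bases GAC. In mRNA the mark is known to gather in long internal exons and around stop codons, and reader proteins of the YTH family that bind it influence the stability, translation and splicing of the transcript. Antibodies raised against m6A also bind the related dimethylated adenosine next to the mRNA cap. The list gives the strand of the annotated transcript, not that of the RNA in the peak, so which RNA an upstream peak came from was not determined.

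Sequences are shown for some of the hosts, and they are not letters of the peaks, which were not read. No result below rests on the microRNA letters. MIR339 is the microRNA gene with the most upstream peaks, and MIR4673 lies within the receptor gene NOTCH1. Their mature RNAs are given from RefSeq (GRCh38.p14), with the seed, bases 2 to 8, in capitals. No seed is shared among them.
hsa-miR-339-5p: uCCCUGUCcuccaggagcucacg
hsa-miR-339-3p: uGAGCGCCucgacgacagagccg
hsa-miR-4673: uCCAGGCAggagccggacugga

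Promoter letters were examined for the 6 hosts with the highest control values among those with a peak at most 250 bases upstream and a window in the RefSeq promoter table, with 1 chromosome left out. NHP2L1, at 189.09 in the control with a peak at -147, was not matched to that table. The DNA form of a preferred methylation site, GGACT, was searched on the gene's strand in the 250 bases before the most upstream RefSeq start. VDAC1, which encodes a channel of the outer mitochondrial membrane, and PEMT, an enzyme of phosphatidylcholine synthesis, each held 1 match, and stretches of 29 bases around it are printed with the match in capitals. They lie on the minus strand of GRCh38.p14, at chr5:134071049-134071077 for VDAC1 and at chr17:17591829-17591857 for PEMT.
VDAC1: ggtcacccctcgGGACTcagggtgggacg
PEMT: cgaaacacactgGGACTtgtagttctcgg
The windows of ALG3, SDC1, MRPL20 and YDJC held none. These windows are in GRCh38 and the peaks are not, and the start used for the peak list may differ from the RefSeq start. A match is therefore a description of the promoter and not a site under the peak.

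Among hosts with a peak at most 250 bases upstream, GGACT stood on the gene's strand in 39 of 150 such windows (26%, 95% Wilson interval 19.6 to 33.6%), counting genes with a single RefSeq start. It stood in 67 of 329 windows of hosts with more distant peaks (20.4%, 16.4 to 25%) and in 2602 of 11786 windows of all protein-coding genes (22.1%, 21.3 to 22.8%). On the opposite strand the shares were 26.7%, 21.9% and 22.7% of the same windows. The intervals of the near hosts and of all protein-coding genes overlapped on either strand. Median G+C content of the windows was 66% for near hosts, 69.6% for hosts with more distant peaks and 62.4% for all protein-coding genes.

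Upstream peaks crowded toward the start. Distances are counted from the peak's centre: for all 3980 transcripts with several peaks, the starts implied by centre and distance differed by at most 0.5 bases. The median distance was 678 bases, the quartiles were 289 and 1657, and the range was 1 to 4980. Per 100 bases of sequence there were 164 peaks within 100 bases of the start, 83.3 between 100 and 250 bases, 85.2 between 250 and 500, 51.8 between 500 and 1000, and 7.4 between 4000 and 5000. In all, 761 peaks (60.9%) lay within 1000 bases and 259 (20.7%) beyond 2000.

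The border at the start splits a dense zone. Every Upstream peak had a negative distance and no peak of another class did: the nearest members were at -1 and 7 peaks of other classes at 0. On the inner side, 892 peaks lay 0 to 100 bases after the start, 753 of them in the 5'UTR class, against 164 on the outer side. Of the upstream peaks, 229 (18.3%) reached across the start with their near edge, and their median width was 335 bases, against 295 bases for the rest. The nearest peaks belonged to DLEU1, a long non-coding RNA gene, TET3, an enzyme that oxidises methylcytosine, and PEMT, each at -1. BIRC2, an inhibitor of apoptosis, the piRNA entry DQ586086, COA5, which serves assembly of cytochrome oxidase, and LCLAT1, an acyltransferase of cardiolipin, followed at -2.

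**Figure D1:**
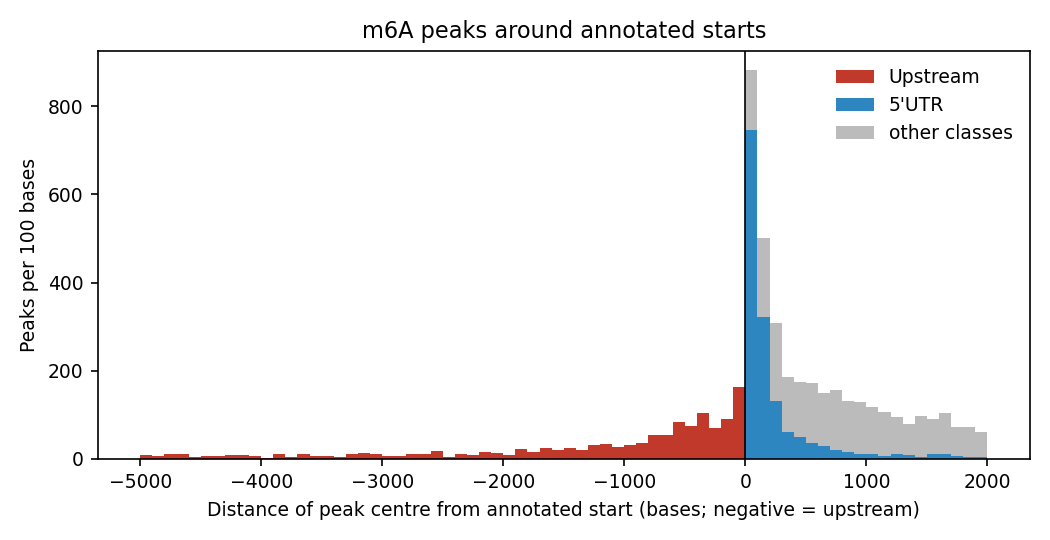
Peaks per 100 bases (y axis) by distance of the peak centre from the annotated start in bases (x axis), stacked by location class. Upstream peaks, left of the line at the start, are densest in the last 100 bases (164 peaks), and the first bins to the right are mostly 5'UTR peaks.

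At the far end, PIM3, a serine/threonine kinase, and LOC401321 each had a peak at -4980. SCOC, a coiled-coil protein of the Golgi, followed at -4979, LOC100507472 at -4976 and LTN1, the ubiquitin ligase of ribosome quality control, at -4967. The class thus ends near 5000 bases. LOC401321 had 3 peaks, at -4980, -4482 and -4032, while the other 4 genes had 1 upstream peak each.

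Peaks were of intermediate width. The median was 299 bases (quartiles 230 and 435), compared with 246 for 5'UTR peaks, 279 for intronic, 318 for downstream, 349 for 3'UTR and 356 for coding-exon peaks. The narrowest were 199 bases wide, as in each other class. Width changed little with distance, with medians between 276 and 310 bases in 8 bins of distance. The widest was at JH8 (2053 bases, centre at -116), followed by SLC35E1 (1673 bases, -4354), ZNF584, a zinc finger gene (1469 bases, -458), SEPT11, a septin of the cytoskeleton (1467 bases, -932), and PIGL, an enzyme of glycolipid anchor synthesis (1452 bases, -562). JH8 lies on chromosome 8 at 143744931 to 143746984, and the others on chromosomes 19, 19, 4 and 17. These positions are as deposited. No source states their build beyond the processing notes, which name hg38, but a peak on chromosome 1 ends at 249212571, past the last RefSeq gene there in GRCh38.

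Most hosts had a single upstream peak. There were 858 genes with 1, 134 with 2, 33 with 3 and 6 with 4. IRX1, a homeobox gene, had peaks at -4764, -4205, -3576 and -1655. C9orf172 had them at -4768, -4271, -3645 and -2694, and BCL7A, a subunit of the SWI/SNF chromatin remodeller, at -2294, -1886, -1156 and -731. MIR339, LOC100132167 and AX748291 were the others. Peaks of 1 gene come from the same peak list and are not replicates.

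A 5'UTR peak stood in the same gene for 104 of 1031 hosts (10.1%, 95% Wilson interval 8.39 to 12.1%), or 6.13% of the 1696 genes with a 5'UTR peak. It was 11.9% (10.9 to 13%) for genes with coding-exon peaks, 10.1% (8.99 to 11.3%) for intronic, 10.6% (9.53 to 11.8%) for 3'UTR and 8.33% (5.46 to 12.5%) for downstream peaks. The interval for upstream hosts overlapped each of these. These groups of genes overlap, the intervals cover counting error only, and no test was made over genes. Among hosts at 1 or more in at least 1 RNA-seq library, 94 of 744 had a 5'UTR peak (12.6%).

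The share varied with distance. It was 5.49% (2.91 to 10.1%) for hosts with a peak within 100 bases, 5.6% at 100 to 250 bases, 11.7% at 250 to 500, 14.3% (10.5 to 19.1%) at 500 to 1000, and 12.7% at 1000 to 2000. Beyond that it was 9.09%, 2.67% and 7.35% per 1000 bases, on 99, 75 and 68 genes. The intervals of the nearest bin and the 500 to 1000 bin did not overlap, but a gene with several upstream peaks can count in more than 1 bin. In genes with both classes, facing edges of the upstream and 5'UTR peaks were never under 79 bases apart. Upstream peaks in the nearest bin had a median width of 276 bases. How far such spacing sets the share near the start was not tested.

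**Figure D2:**
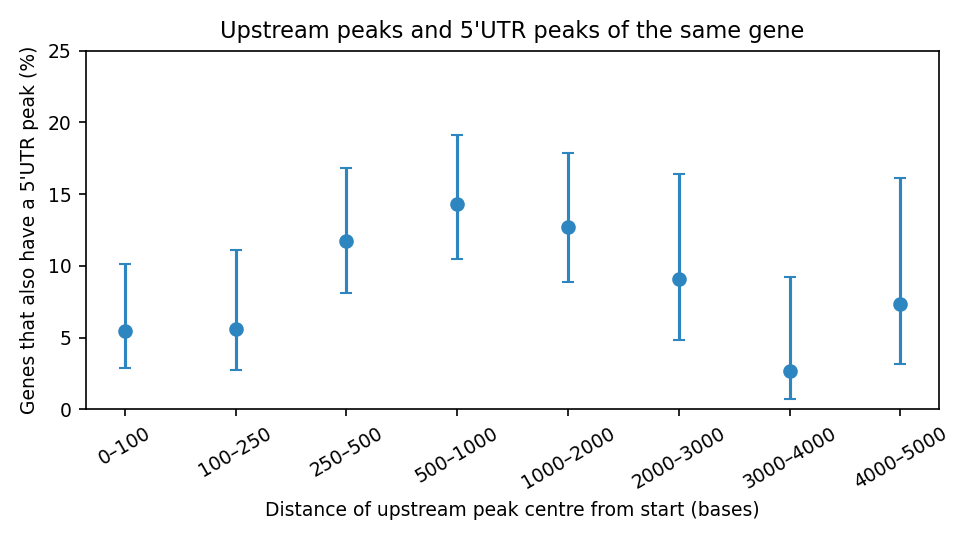
Share of genes with an upstream peak that also have a 5'UTR peak (y axis, percent) by distance of the upstream peak from the start (x axis, bases). Points are shares and bars 95% Wilson intervals. The share is 5.49% in the nearest bin and highest, 14.3%, at 500 to 1000 bases.

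In the 104 genes with both, 121 upstream peaks could be paired with the nearest 5'UTR peak of the same transcript. The gap between their facing edges had a median of 593 bases (quartiles 251 and 1398) and was never under 79 bases. It was at most 100 bases in 7 pairs and over 1000 in 47. A gene with several upstream peaks counts more than once, and its outer peaks add to the wide gaps. ARID1A, for instance, gave gaps of 135, 2475 and 3278 bases to the same 5'UTR peak. At SULT1A3, which encodes a sulfotransferase, the upstream peak (chromosome 16, 30204816 to 30205421) and the 5'UTR peak (30205500 to 30206040) were 79 bases apart. At GRHL2, a transcription factor of epithelial cells, a peak 966 bases wide centred at -649 was followed after 124 bases by a 5'UTR peak centred at 72. Both genes were named after their values were seen.

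Of the hosts, 272 (26.4%) also had a coding-exon peak, 224 (21.7%) a 3'UTR peak, 183 (17.7%) an intronic peak and 20 (1.94%) a downstream peak. Over all 8906 genes with a peak these shares were 43.3%, 31.4%, 28.7% and 2.69%, and 19% for the 5'UTR, so the order of the classes among hosts is that of their sizes. The 8906 genes include those that entered only through the class counted, while each host entered through Upstream. Lower shares among hosts follow in part from this way of counting. The hosts were 6.13% to 8.33% of the genes of each of these 5 classes. For 467 hosts (45.3%, 42.3 to 48.3%) Upstream was the sole class. The share of genes with a sole class was 49.4% for 5'UTR, 54.4% for coding-exon, 52.5% for intronic, 48.6% for 3'UTR and 45.8% for downstream peaks.

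Protein-coding mRNAs made up most hosts, and short or poorly annotated entries made up more of them than among the other genes with peaks. By the descriptions in the peak list, 817 of 1031 hosts (79.2%, 76.7 to 81.6%) were mRNAs, against 6943 of the 7875 genes with peaks of other classes alone (88.2%). cDNA clones, partial or unreviewed entries and all others that matched no type were 106 hosts (10.3%) against 4.39%. Among them were entries named for transfer and ribosomal RNAs and for a microRNA. Entries described as microRNAs were 27 hosts (2.62%) against 0.267%, and piRNA entries 18 (1.75%) against 0.102%. Small nucleolar and small nuclear RNAs were 4 hosts against 1 other gene. Other non-coding RNAs were 59 hosts (5.72%) against 7.06%. The type came from the first row listed for each gene, so some protein-coding genes, such as CBLL1 and PPFIA1, fall under this type. These entry types differ in length, and the part of length in the shares was not tested. Entry types were not counted for genes with a downstream peak alone. Of all genes with a downstream peak 60.8% were matched to the expression table, against 77.8% of upstream hosts and 87.2% of all genes with a peak. The difference in entry types is therefore not shown to be particular to upstream peaks.

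**Figure D3:**
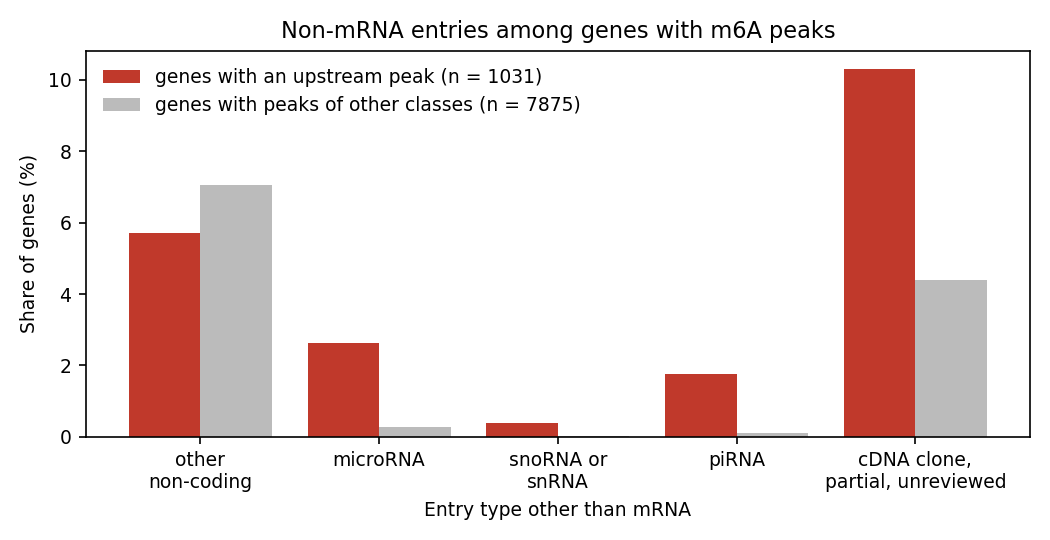
Share of genes (y axis, percent) that are entries other than mRNA (x axis), for genes with an upstream peak (red, n = 1031) and genes with peaks of other classes alone (grey, n = 7875). The type with cDNA clones and partial or unreviewed entries also takes in those that matched no other type. It is 10.3% of the red and 4.39% of the grey genes. Entries described as microRNAs are 2.62% and 0.267%.

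mRNA hosts had their peaks nearer to the start. The median distance was 592 bases over 980 peaks of mRNA hosts and 662 over 22 peaks of piRNA entries. It was 1135 over 134 peaks of the type that holds cDNA clones, partial entries and those that matched no other type. Over 76 peaks of other non-coding RNAs it was 1151, and over 32 peaks of microRNAs 1160. Upstream was the sole class for 305 mRNA hosts (37.3%) and for all 27 microRNA hosts. A 5'UTR peak stood beside the upstream peak in 98 mRNA hosts (12%). By symbol, zinc finger genes starting with ZNF were 31 hosts (3.01%), against 3.68% of all genes with a peak, histone genes 4 hosts, and ribosomal protein symbols 4 hosts, of which RPS10P7 is a pseudogene.

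MicroRNA hosts mostly lay inside longer genes. In RefSeq, 24 of the 27 were contained in a longer coding or long non-coding gene. Of the 20 whose strand was known, 15 were on the strand of the microRNA. The containing gene had peaks of its own in 10 cases, and was at 1 or more in the control library in 17 of the 21 that are in the expression table. The microRNAs themselves are not in that table. Strand, peaks and level were counted for 1 containing gene per microRNA, although some microRNAs, such as MIR675, lay in 2.

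The 4 peaks assigned to MIR339 were at -2131, -2844, -3290 and -3744, and all lay between the start and an inner peak of C7orf50, which RefSeq lists as CHLSN. C7orf50 was at 116.23 in knockdown 1, 102.56 in knockdown 2 and 103.33 in the control. Likewise both peaks of MIR3650 fell within LIFR, a cytokine receptor gene, at 1.76, 2.17 and 2.25 in the same libraries, and both peaks of MIR488 within ASTN1, a neuronal adhesion gene, at 1.7, 0.29 and 0.8.

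The peak assigned to MIR4673 fell within NOTCH1, the receptor of the pathway in the title of the series. It spans 139418331 to 139418540 on chromosome 9, with its centre at -4357 from the microRNA start and 21803 bases after the NOTCH1 start that the list implies. NOTCH1 itself is listed with 3 peaks at its far end, 2 in coding exons and 1 in the 3'UTR, at 48708 to 50653 bases from its start. NOTCH1 was at 3.42 in knockdown 1, 2.81 in knockdown 2 and 3.94 in the control. RefSeq places both genes on the minus strand.

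The same position within another gene held for 43 upstream peaks (3.44%), whose centre lay between the start and an inner peak of another listed gene. In 31 of them that gene was on the host's strand and in 12 on the other. The 4 peaks of AX748291 lay within ANKRD11, that of LOC100507472 within PCSK6, and the wide peak of SLC35E1 within MED26, a Mediator subunit. The count is a minimum, since genes without peaks are not in the list.

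The share of hosts with a neighbour that starts in the opposite direction overlapped that of other genes with peaks in its interval. Counting genes with a single RefSeq start, 133 of 479 hosts (27.8%, 23.9 to 31.9%) had an opposite-strand start within 1000 bases upstream, against 1081 of 4074 genes with peaks of other classes alone (26.5%, 25.2 to 27.9%). Among all protein-coding genes the share was 19.8% (19.1 to 20.6%). It was 30.2% (25.6 to 35.2%) for hosts with a peak within 1000 bases and 21.4% (15.2 to 29.2%) for those with only more distant peaks, and these intervals overlap. COA5 faces UNC50 and NCSTN faces COPA in this way. Within the peak list, 87 upstream peaks had an opposite listed start at most 5000 bases upstream of the host's. The peak lay between both starts in 83 and beyond the other start in 4. Each position is listed once, under 1 gene, so a peak beyond the other start may be listed under that gene instead.

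Hosts included 4 genes of the m6A machinery, among 21 listed genes of which 15 had a peak. WTAP, which holds the writer complex in nuclear speckles, had a peak 722 bases wide at -541 (chromosome 6, 160147249 to 160147971). CBLL1, an adaptor of that complex, had one at -614 together with a 5'UTR peak. The cytoplasmic readers YTHDF1 and YTHDF3 had peaks at -642 and -1286, and at -386. YTHDF3 also had a 5'UTR peak. WTAP was at 48.82 in knockdown 1, 40.25 in knockdown 2 and 40.76 in the control, CBLL1 at 7.44, 7.31 and 6.29, YTHDF1 at 53.31, 36.01 and 45.19, and YTHDF3 at 7.24, 7.34 and 6.95. Both knockdown libraries lay above the control for CBLL1 and YTHDF3 and on either side of it for WTAP and YTHDF1. None of the 21 genes passed limma, the test described below, which called 0 of all 12375 genes tested.

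Of 30 Notch pathway genes, 19 had a peak and HES4 and NCSTN had one upstream. HES4 is a target gene that encodes a transcriptional repressor, and its only peak was at -461 (chromosome 1, 935853 to 936173). It was at 29.26 in knockdown 1, 81.75 in knockdown 2 and 33.2 in the control, so it was high in knockdown 2 alone. NCSTN encodes nicastrin, a subunit of the gamma-secretase that cleaves Notch receptors. Its only peak was at -23 (chromosome 1, 160312934 to 160313145), and its promoter window held no GGACT on the gene's strand. It was at 28.95, 27.13 and 25.46 in the same libraries, with both knockdown libraries above the control. None of the 30 genes passed limma, which tested only genes at 1 or more in at least 1 library and called 0 of all 12375. Of the genes with a peak in each list, 4 of 15 m6A genes, 2 of 19 Notch genes, 0 of 20 immediate early genes and 0 of 5 squamous genes had one upstream, beside 11.6% of all genes with a peak. No test was made of these lists against that share.

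Expression was looked up for 802 hosts, 747 by symbol and 55 by an older symbol. The unit of the expression values is not stated and scaling by gene length is not known, so levels are not ranked between genes beyond the naming rule. The median host was at 9.14 in knockdown 1, 9.29 in knockdown 2 and 9.75 in the control. In the control, 725 of 802 hosts (90.4%, 88.2 to 92.2%) were at 1 or more, against 87.1% (86.4 to 87.9%) of all genes with a peak, 95.3% of genes with a 5'UTR peak and 82.9 to 88.8% of genes with peaks of the other 4 classes. Among all named genes in the table the share was 63.9%.

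Peaks were more distant at hosts with low values. The 58 hosts under 1 in all 3 libraries held 71 peaks with a median distance of 1220 bases, and 42.3% of these peaks were within 1000 bases. The 744 hosts at 1 or more in at least 1 library held 893 peaks with a median of 555 bases and 67.3% within 1000 bases. The 229 hosts not matched to the table held 285 peaks with a median of 1225 bases. IRX1, with 4 upstream peaks, was at 0 in knockdown 1, 0.05 in knockdown 2 and 0.03 in the control, and C9orf172, also with 4, was at 0.09, 0.24 and 0.44. CACNA1S, RTP3 and TRIM50, named after their values were seen, are listed at 0 in all 3 libraries.

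The 10 hosts with the highest control values include 3 ribosomal protein genes. RPL11, with a peak at -2404, was at 2118.16 in knockdown 1, 2950.9 in knockdown 2 and 2311.29 in the control. RPS21, with a peak at -365, was at 2307.8, 1908.49 and 2193.81. RPS7, with peaks at -4945 and -822, was at 1145.24, 1384.38 and 1112.65. The first pair had the control between the knockdown libraries, and RPS7 had both knockdown libraries above it. PPIA, the folding enzyme cyclophilin A, with a peak at -1186, was at 2358.31, 1886.75 and 2020.08. BTF3, which binds nascent chains, was at 528.57, 756.31 and 507.41. It was the one gene of the 10 with a 5'UTR peak, besides its upstream peak at -554.

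The remaining 5 were CD63, a tetraspanin of late endosomes (peaks at -443 and -1390), SLC25A39, a mitochondrial carrier (-805 and -2183), ARPC2, a subunit of the actin-nucleating Arp2/3 complex (-623), PSME2, a proteasome activator subunit (-283), and DYNLRB1, a dynein light chain (-569). Their control values were 308.92 to 455.52, and DYNLRB1 was above its control in both knockdown libraries. Copies of ribosomal protein genes and of PPIA are common in the genome as pseudogenes, so their values are uncertain.

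**Figure D4:**
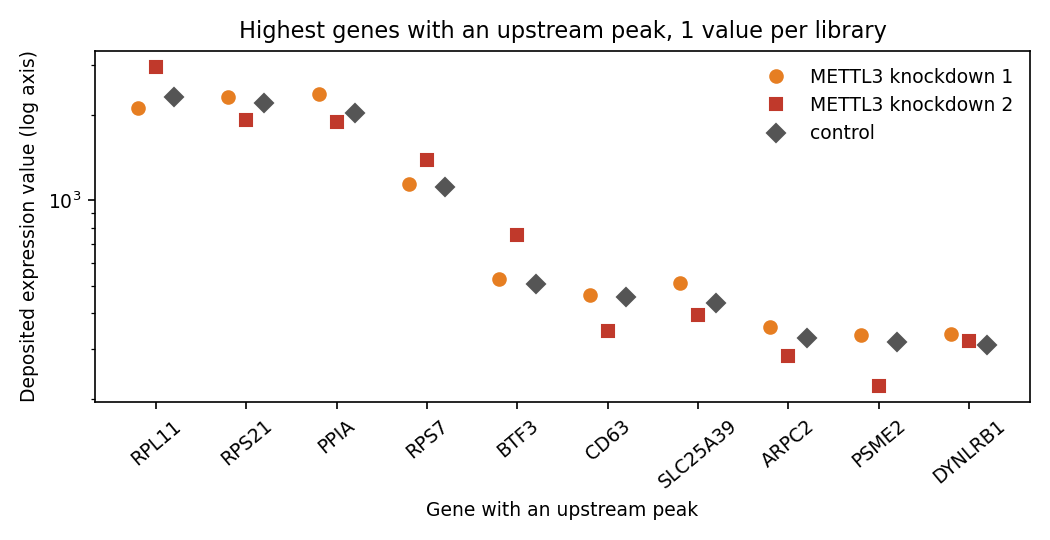
Deposited expression value (y axis, log scale) in METTL3 knockdown 1, METTL3 knockdown 2 and the control (1 point per library) for the 10 genes with an upstream peak and the highest control values. RPL11 is at 2118.16, 2950.9 and 2311.29, and in most genes the control lies between the knockdown libraries.

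Before host genes are compared between libraries, a few facts about these libraries apply. METTL3 was at 8.35 in knockdown 1, 4.99 in knockdown 2 and 20.81 in the control. Knockdown 2 stood apart, with the cell cycle inhibitor CDKN2A at 144.68, against 0 in knockdown 1 and 0.04 in the control. All 10 squamous markers were at 1 or more in every library, with summed values of 4734, 3071 and 4958, and 4 of 4 epithelial markers likewise, with sums of 945.3, 847.7 and 963. Of 6 fibroblast markers 1 was at 1 or more in every library (sums 3.7, 3.75 and 3.42), of 4 leukocyte markers 1 (8.36, 10.44 and 19.26), and of 3 endothelial markers 0 (0.37, 0.33 and 1.02). The part of these differences in the results below was not tested. In bulk libraries, fewer cells that express a gene and less of its RNA per cell cannot be told apart.

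No host gene was at least 2-fold different from the control in the same direction in both knockdown libraries, on the log2(value + 1) scale. This was 0 of 744 hosts tested, against 16 of all 12375 genes tested (0.129%). limma called 0 hosts and 0% of all genes at an adjusted p under 0.05, with 12 hosts (1.61%) and 162 genes (1.31%) at an unadjusted p under 0.05. The lowest adjusted p of a host in limma was 1. METTL3 itself had an adjusted p of 1 in limma. Only the 2 knockdown libraries inform the spread, with 1 residual degree of freedom, and a missing call does not show that levels were equal.

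In knockdown 1 alone, 1 host differed at least 2-fold (0.134%), against 0.646% of all genes. It was CRYAB, named after its values were seen, a small heat shock protein gene with a peak at -78, at 37.61 in knockdown 1, 13.53 in knockdown 2 and 17.71 in the control. In knockdown 2 alone, 18 hosts were at least 2-fold higher (2.42%, against 3.63% of all genes) and 7 at least 2-fold lower (0.941%, against 0.978%). The shares of hosts were at or below those of all genes in these 3 counts. Knockdown 2, which gave 25 of these hosts, is the library with CDKN2A at 144.68.

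Among the 18 hosts higher in knockdown 2, 6 are described here, chosen after their values were seen, besides HES4 above. HOXA5, a homeobox gene with a peak at -704, was at 4.51 in knockdown 1, 20.08 in knockdown 2 and 2.09 in the control. TBX1, a T-box gene with a peak at -1160, was at 1.12, 15.2 and 0.51. FOXC1, a forkhead gene with peaks at -4778, -3274 and -2010, was at 7.99, 26.99 and 4.56. ID2, an inhibitor of helix-loop-helix factors with a peak at -1731, was at 13.29, 51.11 and 8.85. In these 4 genes both knockdown libraries lay above the control, and knockdown 2 was far above both others.

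CHAC1, which degrades glutathione and is known as an ATF4 target, had a peak at -4552 and was at 9.5 in knockdown 1, 13.62 in knockdown 2 and 4.35 in the control. Its log2 changes were 0.97 and 1.45, so knockdown 2 was past 2-fold and knockdown 1 fell just short of it. GPX2, a glutathione peroxidase of epithelia with a peak at -824, was at 118.14, 468.93 and 203.05, so knockdown 1 was below the control and knockdown 2 above it.

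Among hosts lower in knockdown 2, also named after their values were seen, TNC, the matrix glycoprotein tenascin C, had a peak at -585 and was at 6.32 in knockdown 1, 3.46 in knockdown 2 and 12.25 in the control. ITGB1, the integrin beta-1 subunit, had peaks at -449 and -1610 and was at 176.87, 149.23 and 301.05, with log2 changes of -0.76 and -1.01. Both knockdown libraries lay below the control for these genes. AXL, a receptor tyrosine kinase with a peak at -91, was at 20.96, 7.46 and 19.36, low in knockdown 2 alone.

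Over all 744 hosts the medians lay near 0. The median log2 change was -0.03 in knockdown 1 (quartiles -0.18 and 0.12) and -0.10 in knockdown 2 (-0.31 and 0.11), against -0.01 and 0.00 over all 12375 genes. With the libraries scaled to equal medians the hosts' median in knockdown 1 was 0.01, so its sign was not kept, and in knockdown 2 it was -0.11. Both knockdown libraries lay below the control in 272 hosts (36.6%, against 30.4% of all genes) and above it in 150 (20.2%, against 28% of all genes). With equal medians these shares were 33.9% below (all genes 27.6%) and 22% above (all genes 30.7%), so among all genes the larger of the 2 shares changed. Both counts share the single control library, and no test was made over genes. Genes with peaks of other classes had medians of -0.02 to -0.07 in knockdown 2. For the 271 hosts whose sole class was Upstream the median was -0.02 in each knockdown library, and for the 94 with a 5'UTR peak as well it was -0.00 in knockdown 1 and -0.14 in knockdown 2.

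**Figure D5:**
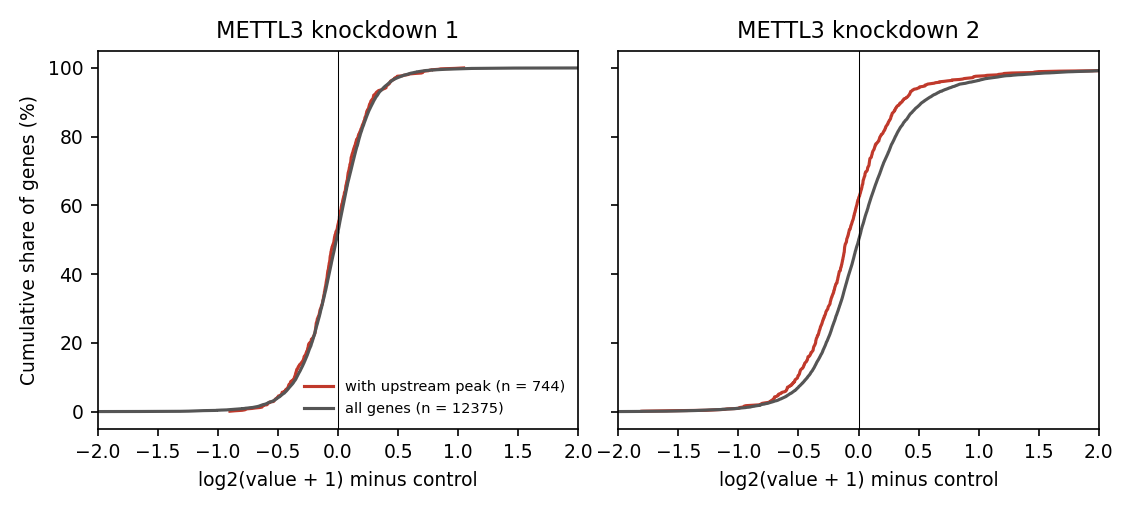
Cumulative share of genes (y axis, percent) by log2(value + 1) in the knockdown library minus the control (x axis), for 744 genes with an upstream peak (red) and all 12375 genes tested (grey), with knockdown 1 on the left and knockdown 2 on the right. In knockdown 1 the medians are -0.03 and -0.01, and in knockdown 2 they are -0.10 and 0.00.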

How the data were processed

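Per the submitters' processing notes, reads were aligned with TopHat2 and counted with HTSeq, hg38 is named as build, and MACS2 is named for the immunoprecipitation. No source used here gives versions, parameters or any pooling of immunoprecipitations. The authors deposited 1 expression signal per gene and library in an unstated unit, with column sums of 617840.4, 627152 and 608291 for knockdown 1, knockdown 2 and control. It holds no counts, so depth is unknown. The deposited peak list has no score, so peaks could not be ranked. Width is end minus start.

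limma (version 3.58.1, R 4.3.3) compared knockdown with control on log2(value + 1) for the 12375 genes at 1 or more in at least 1 library, with a mean-variance trend and Benjamini-Hochberg adjustment over all of them. The procedure was tested on simulated data. Shares have 95% Wilson intervals (scipy 1.17.1, Python 3.11.15). The 25 rows with a date for a symbol were left unnamed. Host genes were matched to symbols and older symbols, and sequences are from RefSeq GRCh38.p14.

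Genes named are the 10 hosts with the highest control values, those 2-fold different in both knockdown libraries, the 5 hosts with most upstream peaks, the 5 nearest, farthest and widest peaks (with ties), and members of 4 gene lists. Others named with values were chosen after these were seen, or lie beside or around such a host. The members and lists were chosen with earlier results of these data known. Alternatives were other pseudocounts, filters, scalings, joins and each knockdown library left out.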

Additional observations from a re-analysis of the deposited data

How the results depend on the processing

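Of 28 alternatives run, 19 left the value within its interval or 1.5 times of its count. Counting only peaks at most 1000 bases from the start, upstream peaks were 4.77% of the list, by construction. Among hosts at 1 or more in at least 1 library, 12.6% had a 5'UTR peak, and among mRNA entries, an alternative added after seeing the data, 12%. In place of 0 hosts 2-fold different in both knockdown libraries, a pseudocount of 0.1 gave 3 (CHAC1, HOXA5 and TBX1), and a pseudocount of 0.5 or libraries scaled to equal medians gave 1 (CHAC1). Over all genes these settings gave 91, 36 and 18 in place of 16. With 1 knockdown library left out in turn, with no test, 1 to 25 hosts were past 2-fold, and the median log2 change, -0.06 in the mean of both libraries, was -0.10 to -0.03. Without knockdown 2, the library with high CDKN2A, these were 1 host and -0.03. Over all genes, 0.646% were past 2-fold without knockdown 2 and 4.61% without knockdown 1. limma called 0 hosts under each of the 4 alternatives, with 4 to 14 hosts at an unadjusted p under 0.05. No paired analysis was possible, because 1 control library stands against 2 knockdown libraries. Depth is unknown, so the limit it sets on low values is unknown as well.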
